A study of Mus musculus with 9 samples.

Results

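Left ventricle of infarcted mice treated with BPD was set against left ventricle of infarcted mice without it, by bulk RNA sequencing with 3 libraries labelled MI+BPD and 3 labelled MI. The members are all genes that passed a filter on low counts, which were 15138 of the 55367 gene symbols in the deposited table. MI stands for myocardial infarction, and both groups were taken at day 14 after it. Another 3 sham libraries, for which no time is given, entered the fit as the uninjured group and are used here for their levels only. The tissue piece is described as infarct core together with the region around it, so each library mixes scar and surviving muscle in an unstated proportion. What BPD stands for is not spelled out in the labels, which give neither dose nor route and describe a treatment aimed at the proliferative phase of healing. They give no strain, sex or age, and do not say whether each library is 1 animal. The p-values therefore measure the spread between these libraries, which may be partly technical. The question named for the series is whether the treatment goes with less fibroblast activation, and its title concerns ferritin and iron.

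After an infarct, dead muscle is cleared by white cells and replaced by scar. In the proliferative phase resting cardiac fibroblasts turn into activated fibroblasts and myofibroblasts, which lay down collagen, fibronectin and matricellular proteins such as periostin; later the scar is crosslinked and its cells become quieter. Ferritin, built of heavy and light chains, stores iron inside cells, the transferrin receptor brings it in and ferroportin lets it out.

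Total counts ranged from 14451410 to 19269072 over the 9 libraries, with MI at 19101748 to 19269072 and MI+BPD at 17006222 to 17424302. The infarct groups thus did not overlap in depth. They did not overlap in genes with a count either, at 22394 to 23331 in MI and 21664 to 21766 in MI+BPD. A gene's level is given in CPM, counts per 1000000 of the library, scaled with TMM factors, which adjust for differences in composition, and levels are listed for replicates 1, 2 and 3 in that order. The TMM factors were 1.139 to 1.319 in MI and 0.983 to 1.132 in MI+BPD, again without overlap. The part of these library differences in the gene values was not tested. The 13 protein-coding genes of mitochondrial DNA took 11.2%, 11.5% and 17.6% of the counts in MI and 24.8%, 17.1% and 17.1% in MI+BPD. The groups overlapped, and their means differed by 6.24 percentage points, with SDs of 3.63 and 4.41 (n = 3 each; exact permutation test, 2-sided, p = 0.3). As 3 against 3 libraries allow no p below 0.1, this test could not have passed 0.05. Heart muscle was present in all libraries, and the level of 40 cardiomyocyte genes (mean log2 CPM) was 8.54, 8.67 and 9.27 in MI, 9.54, 9.17 and 9.13 in MI+BPD and 10.23, 10.24 and 10.29 in sham. MI 3 thus stood apart from MI 1 and MI 2 and lay inside the range of MI+BPD, and MI+BPD 1 was the treated library with the most muscle RNA. MI 1 stood apart in another way, with immunoglobulin genes taking 0.577% of its counts against 0.00402% to 0.0341% in the other 5 infarct libraries. In bulk tissue, fewer cells of a type and less RNA per cell cannot be told apart.

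**Figure D1:**
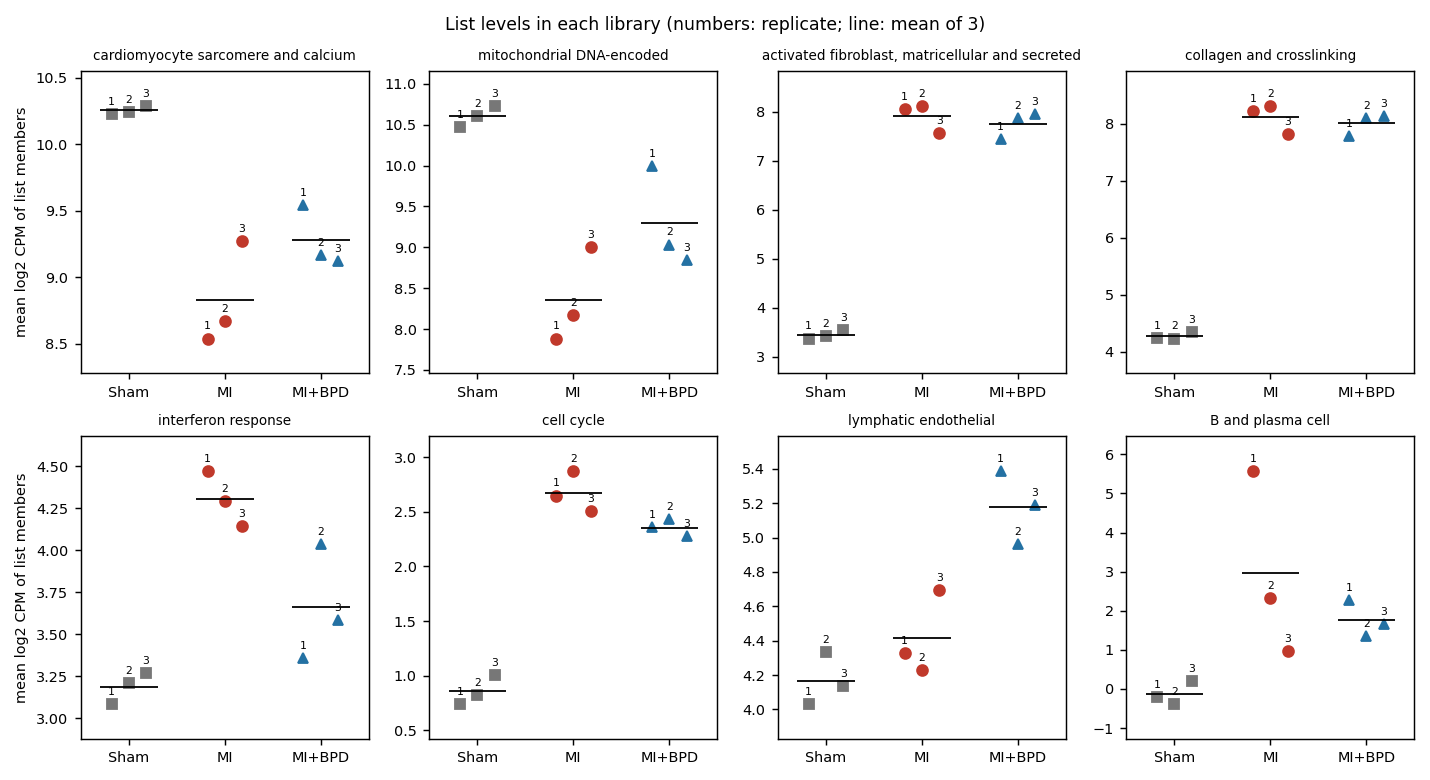
Level of 8 gene lists in each library, as the mean log2 CPM of the list's members (vertical axis) for sham, MI and MI+BPD (horizontal axis), with replicate numbers beside the points and a line at the mean of 3. The cardiomyocyte and mitochondrial levels of MI 3 lie among those of MI+BPD, the interferon, cell cycle and lymphatic levels of the 2 infarct groups do not overlap, and the B-cell level of MI 1 (5.58) is far above all others.

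No gene was called in MI+BPD against MI by edgeR's quasi-likelihood test at a Benjamini-Hochberg adjusted p under 0.05 (0 of 15138, 0%; smallest adjusted p = 0.369). The same fit called 68.9% of genes in MI against sham and 59.6% in MI+BPD against sham, comparisons that share libraries with this one. The estimate was above 0 for 50.7% of genes and below 0 for 49.3%, and at an unadjusted p under 0.05 there were 2043 genes (13.5%), 1305 higher in MI+BPD (8.62%) and 738 lower (4.88%). The 3 libraries of one group lay wholly above or below those of the other in 2111 genes (13.9%), 1003 higher (6.63%) and 1108 lower (7.32%). For 11931 genes (78.8%) the 95% interval of the fold change stayed within 2-fold in both directions, so that larger changes lie outside the interval. The count of calls depended on the method and on 1 library. DESeq2 called 37 genes, 16 higher and 21 lower, and limma-voom with library quality weights called 992, 771 higher and 221 lower. Without MI replicate 3 edgeR called 1353 genes, 1126 higher and 227 lower, while leaving out any of the other 8 libraries gave 0 calls. Of the 37 genes of DESeq2, 34 were called by limma-voom and without MI replicate 3 as well, 14 higher and 20 lower. These are not separate checks, since limma-voom gave MI 3 the lowest weight of all libraries, 0.289. MI+BPD 1 had 0.327 and MI 2 had 2.23. As edgeR called no gene, differences are given as values with their standard error (log2 change ± SE), and "apart" means that the libraries of MI and MI+BPD did not overlap. Genes given below with a DESeq2 adjusted p all had an edgeR adjusted p of 0.369.

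Genes of activated fibroblasts, the subject of the series' question, overlapped between MI and MI+BPD with 1 exception. Of all 15138 genes tested 13027 overlapped too, so overlap is not particular to this list. Of 30 matricellular and secreted genes, all tested, none was called, 10 were higher and 20 lower in MI+BPD, and their median log2 change was -0.27, beside 0.0028 over all genes tested. Their level was 8.06, 8.13 and 7.56 in MI, 7.44, 7.88 and 7.96 in MI+BPD and 3.37, 3.42 and 3.56 in sham, so the infarct groups overlapped and both stood far above sham. Without MI+BPD replicate 1 the median was -0.06, with 13 higher and 17 lower, and over all 9 libraries left out in turn it ranged from -0.42 to -0.06. The interval stayed within 2-fold for 15 of the 30. Only Vcan was apart, and at an unadjusted p under 0.05 there were Vcan and Tnc, both higher. In the lower direction 0 had such a p. Of all genes, 8.62% were higher and 4.88% lower at that p. 

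Postn encodes periostin, the marker protein of activated cardiac fibroblasts. It stood at 2386, 2280.3 and 2135 CPM in MI and 1936, 3439 and 3603 CPM in MI+BPD, and at 38.8, 33.2 and 41.9 CPM in sham. MI+BPD 1 lay below and MI+BPD 2 and 3 above all MI libraries. The log2 change was 0.40 ± 0.24 with a 95% interval of -0.13 to 0.93. Cthrc1, a secreted protein of matrix-producing fibroblasts after infarction, stood at 155, 163 and 106 CPM in MI and 74.6, 109 and 136 CPM in MI+BPD (log2 change -0.41 ± 0.23). Fn1, fibronectin, stood at 3955, 4075 and 1713 CPM and 2533, 2150.2 and 2316 CPM, with the MI+BPD libraries between MI 3 and the other MI libraries (-0.48 ± 0.30, interval -1.16 to 0.21). Fap, fibroblast activation protein, had 23.8, 26.7 and 19.9 CPM and 27.3, 24.3 and 29.001 CPM (0.19 ± 0.13). The groups overlapped for each of these genes. Of the thrombospondins, which bind matrix and growth factors, all 3 on the list overlapped as well. Thbs1 and Thbs2 had lower means in MI+BPD, with Thbs1 at 1234, 1784 and 564 CPM in MI and 318, 848 and 840.3 CPM in MI+BPD, and Thbs2 491, 689.5 and 281 CPM and 369.7, 347 and 313 CPM. Thbs4 had a higher mean, at 159, 169 and 211 CPM and 79.5, 352 and 223 CPM (0.28 ± 0.42). The value of MI 3 was the lowest of its group for Thbs1, Thbs2, Fn1 and Cthrc1. Tnc, tenascin C, had 81.99, 88.5 and 55.8 CPM in MI and 281, 81.3 and 96.3 CPM in MI+BPD, where MI+BPD 1 was far above the other 5 libraries.

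**Figure D2:**
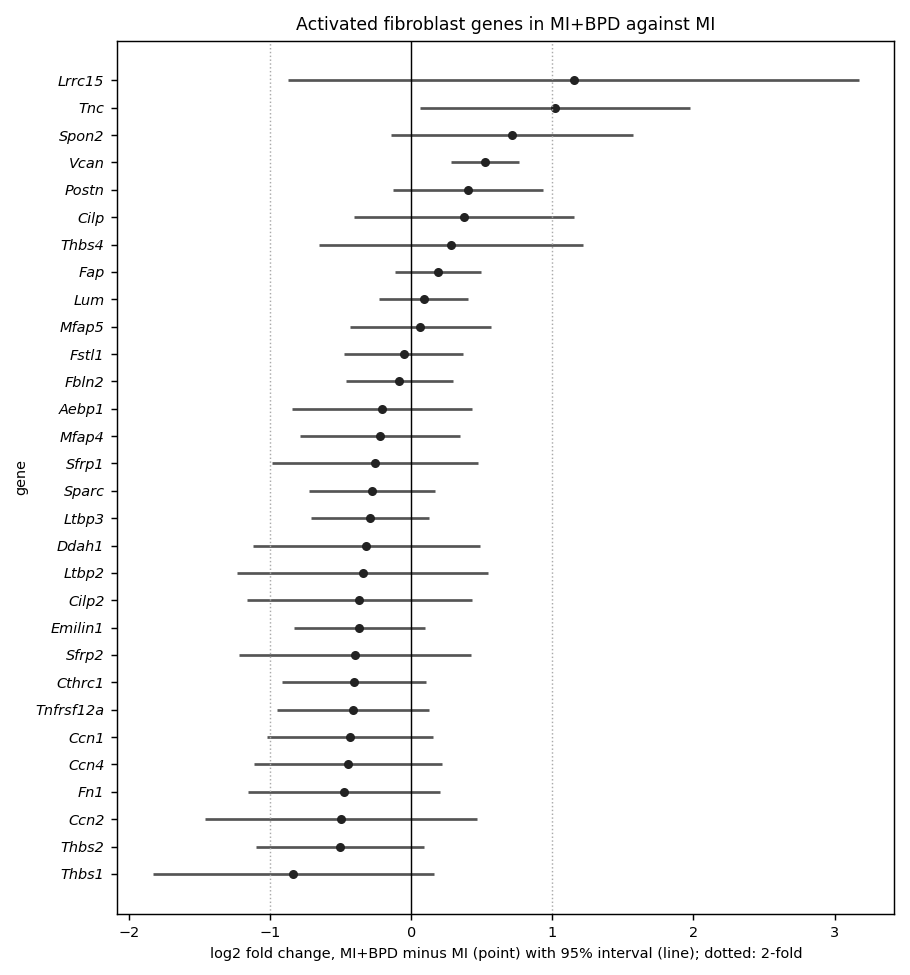
Log2 fold change of the 30 activated fibroblast genes in MI+BPD against MI (horizontal axis, point) with its 95% interval (line), one gene per row, and dotted lines at 2-fold. All intervals except those of Vcan and Tnc include 0, and the points lie on both sides of it, 10 above and 20 below.

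Collagens and contractile genes of myofibroblasts likewise overlapped in nearly all cases, as did most of all genes tested (13.9% apart in either direction). Of 28 collagen and crosslinking genes, which include the fibrillar collagens and others such as collagen VI, 9 were higher and 19 lower (median -0.12), and 23 had an interval within 2-fold. Col1a1, the main collagen of scar, had 2730.0, 3155 and 1649 CPM in MI and 3246, 2100.3 and 2342 CPM in MI+BPD, a log2 change of 0.03 ± 0.27 with an interval of -0.58 to 0.63; its sign turned with upper-quartile factors, with library totals as the only scaling and in limma-voom. Col3a1 had 7438, 7930.3 and 5284 CPM and 8063, 7149 and 8093 CPM (0.17 ± 0.22, interval -0.32 to 0.67), and was slightly lower with library totals only. The 2 genes apart were Col6a3, a chain of the microfibrillar collagen VI, at 289, 279.8 and 239 CPM in MI and 401, 322 and 349 CPM in MI+BPD, and P4ha2, a collagen prolyl hydroxylase, at 36.7, 37.7 and 38.3 CPM and 51.7, 41.9 and 40.7 CPM. Col11a1, a minor fibrillar collagen, had 95.6, 174 and 63.2 CPM and 57.7, 83.9 and 65.4 CPM.

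Of 21 contractile and adhesion genes of myofibroblasts, 4 were higher and 17 lower (median -0.21), and 0 were apart, beside 13.9% of all genes. Acta2, the smooth muscle actin that defines myofibroblasts, had 269, 365 and 179.8 CPM in MI and 191, 258 and 228 CPM in MI+BPD, a log2 change of -0.27 ± 0.30 with an interval of -0.94 to 0.41. Sham had 106, 178 and 224 CPM and overlapped both infarct groups. Acta2 is also on the pericyte and smooth muscle list. Itga11, a collagen-binding integrin chain of myofibroblasts, had 87.7, 109 and 56.4 CPM and 30.3, 63.4 and 57.5 CPM (-0.74 ± 0.29). For Itga11 MI 3 lay within the range of the treated libraries. Of 35 tested growth factor and transcription factor genes, 5 were higher and 30 lower, with a median of -0.14 and 30 intervals within 2-fold. Apart were 2, Egr1 and Tcf21, both lower, beside 7.32% of all genes in that direction. Tgfb1, the growth factor that drives fibroblast activation, had 42.8, 49.5 and 37.97 CPM in MI and 30.4, 38.8 and 37.4 CPM in MI+BPD (-0.29 ± 0.12). Runx2 and Twist1, transcription factors of mesenchymal cells, overlapped, with Runx2 at 12.4, 14.5 and 9.48 CPM and 6.23, 9.80 and 10.5 CPM and Twist1 at 10.02, 9.93 and 6.86 CPM and 6.53, 6.88 and 6.30 CPM.

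Several matrix genes were among those of smallest p. Dpt encodes dermatopontin, a matrix protein of resting fibroblasts that binds collagen and decorin. Its level was 340.2, 265 and 276 CPM in MI and 519, 457 and 507 CPM in MI+BPD, against 89.8, 91.7 and 102 CPM in sham. Every treated library was above every MI library, as the rule that named Dpt required that the groups be apart. Both groups were above sham. The log2 change was 0.75 ± 0.12 with an interval of 0.47 to 1.03 (edgeR adjusted p = 0.369, DESeq2 adjusted p = 1.4e-05). Vcan, versican, a proteoglycan of provisional matrix, stood at 175, 139 and 165 CPM in MI and 219.5, 241 and 228 CPM in MI+BPD (0.52 ± 0.11, edgeR adjusted p = 0.369, DESeq2 adjusted p = 0.0111).

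Nid2 and Agrn, which encode basement membrane proteins, were among the lower genes of smallest p. Nid2, nidogen 2, which links laminin to collagen IV, had 59.7, 57.5 and 47.3 CPM in MI and 33.8, 39.1 and 31.4 CPM in MI+BPD (-0.66 ± 0.11, edgeR adjusted p = 0.369, DESeq2 adjusted p = 0.0027). Agrn, the heparan sulfate proteoglycan agrin, had 116, 116 and 98.5 CPM and 68.6, 82.8 and 81.9 CPM (-0.50 ± 0.10). Both genes were apart by the rule that named them, with sham below the treated group. Resting fibroblast genes as a whole were 15 higher and 6 lower of 21 tested (median 0.12, and -0.09 with library totals only). In each direction 1 was apart, beside 6.63% of all genes as higher and 7.32% as lower. Dpt was the higher one, and the lower one was Tcf21, a transcription factor of resting fibroblasts, at 36.3, 38.1 and 31.99 CPM and 11.4, 30.3 and 31.9 CPM, where MI+BPD 1 alone was far below MI. Igfbp3, an IGF-binding protein, overlapped at 121, 136 and 81.3 CPM in MI and 58.6, 97.3 and 50.4 CPM in MI+BPD. Cartilage and tendon-like scar genes were 4 higher and 14 lower of 18 tested (median -0.51). Acan, the cartilage proteoglycan aggrecan, had 39.7, 46.3 and 19.7 CPM in MI and 11.1, 21.7 and 17.01 CPM in MI+BPD, with MI 3 inside the treated range, and Prg4, the lubricating proteoglycan lubricin, was apart in the other direction at 24.8, 14.7 and 20.4 CPM and 62.1, 39.01 and 33.1 CPM.

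Interferon response genes had lower estimates in MI+BPD throughout, and of the 38 lists theirs had the most genes apart. Interferons signal through transcription factors to a DNA element, the interferon-stimulated response element, and the genes that carry it encode antiviral proteins; in infarcts macrophages are known to carry this response. All 34 listed genes were tested and all 34 were lower in MI+BPD than in MI, with a median log2 change of -0.58. None was called in edgeR, 23 had an unadjusted p under 0.05 and 20 were apart, beside 4.88% and 7.32% of all genes in that direction. DESeq2 called 4 of them lower, limma-voom 10 (with 32 of the 34 lower), and edgeR without MI replicate 3 called 9. Among all genes these settings called 21, 221 and 227 lower. Without MI replicate 1 or MI+BPD replicate 1, 32 were lower and 18 were at an unadjusted p under 0.05 (medians -0.44 and -0.51). The level of the list was 4.47, 4.30 and 4.14 in MI, 3.36, 4.04 and 3.58 in MI+BPD and 3.09, 3.21 and 3.27 in sham.

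Irf7, the transcription factor that amplifies the response, stood at 36.9, 31.999 and 25.04 CPM in MI, 12.5, 19.3 and 13.4 CPM in MI+BPD and 11.3, 11.9 and 9.07 CPM in sham. The treated libraries lay between sham and MI without overlap with MI, and the log2 change was -1.06 ± 0.19 with an interval of -1.49 to -0.62 (edgeR adjusted p = 0.369, DESeq2 adjusted p = 0.0053). Ifi44 had 21.2, 18.2 and 15.3 CPM in MI and 8.15, 10.7 and 9.40 CPM in MI+BPD (-0.95 ± 0.17, DESeq2 adjusted p = 0.0059). Usp18, which removes the ubiquitin-like protein ISG15 and restrains the interferon receptor, had 10.5, 10.5 and 9.53 CPM and 5.21, 7.29 and 5.08 CPM (-0.79 ± 0.15, DESeq2 adjusted p = 0.018). Oasl2, of the oligoadenylate synthetase family, had 73.9, 52.7 and 43.5 CPM and 31.1, 37.3 and 27.2 CPM (-0.83 ± 0.18, DESeq2 adjusted p = 0.0399). In all 4 genes MI 3 was the lowest MI library and still above the highest treated one. For Irf7, Ifi44 and Usp18 the rule that named them required this separation, so it is no finding. Other members differed less: the chemokine Cxcl9 had 9.18, 7.21 and 6.72 CPM in MI and 4.85, 9.24 and 8.13 CPM in MI+BPD (-0.05 ± 0.25) and the GTPase Igtp a log2 change of -0.08 ± 0.32. Ifit3 and Ifit3b are near-identical copies, and the authors' counting may split reads between them.

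**Figure D3:**
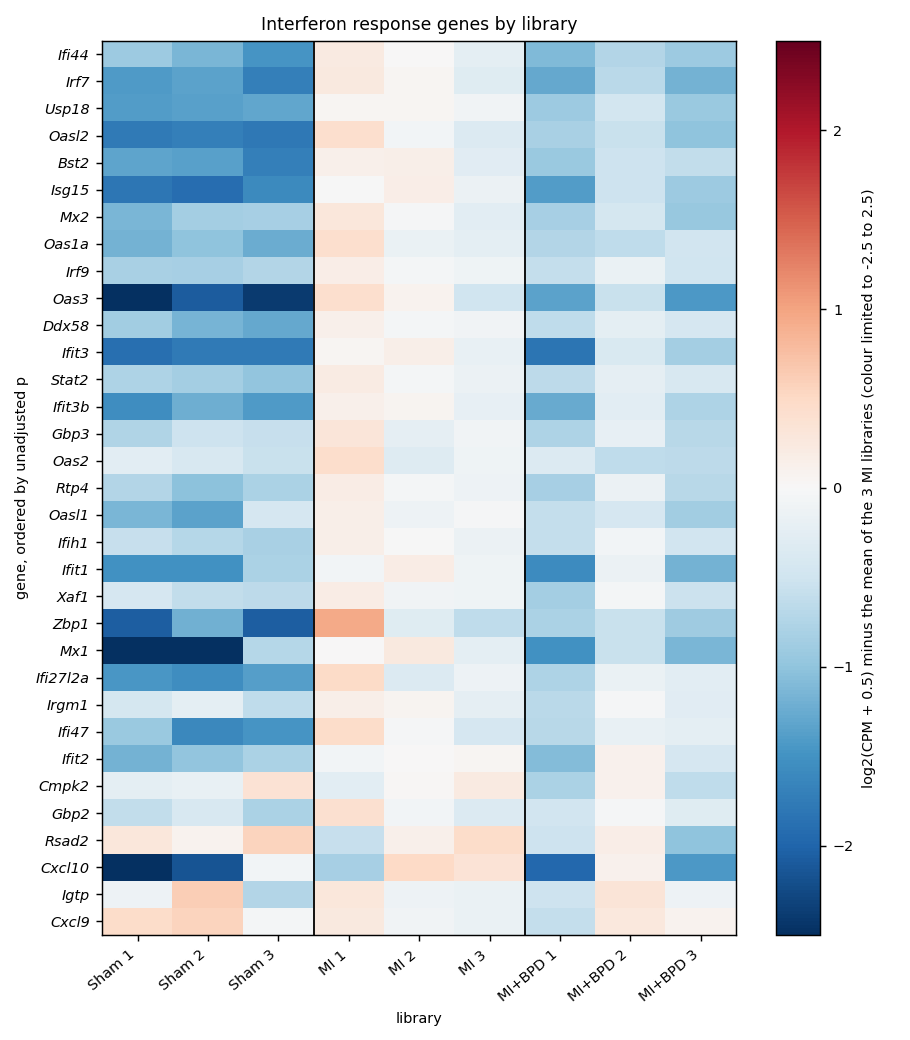
Log2(CPM + 0.5) of 33 of the interferon response genes (rows, ordered by unadjusted p) in 9 libraries (columns), as the difference from the mean of the 3 MI libraries, with colour limited to the range from -2.5 to 2.5. The upper 14 rows are lower in all 3 MI+BPD libraries than in any MI library, MI+BPD 1 is the darkest of the treated columns in most rows, and the lowest 10 rows overlap.

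Promoter sequence is shown for members of this list because part of them hold the interferon-stimulated response element. A motif of GAAA, any 2 bases and GAAA, the core of the interferon-stimulated response element, was searched on both strands of the 250 bases before the start of each gene in RefSeq's promoter table (GRCm38.p6), matched by symbol; a gene with several or overlapping matches was counted once. Of the 34 interferon genes 26 had an entry, and 14 of these (53.8%) held the motif, against 375 of 11265 tested genes with an entry (3.33%). Irf7, Ifi44 and Oasl2 had an entry and no match in this window. The element is a textbook feature of these genes, so its share in a list of known interferon genes is no independent finding. A match is a description, not a measured binding site. For the 5 members of smallest p that hold a match, the matches are printed in capitals with up to 40 bases on either side, 5′ to 3′ on the gene's own strand; a match on the other strand reads TTTC, any 2 bases and TTTC.
Bst2 (chr8:71537547-71537642, minus strand): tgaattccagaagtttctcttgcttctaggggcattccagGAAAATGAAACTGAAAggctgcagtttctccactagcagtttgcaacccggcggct
Isg15 (chr4:156200835-156200936, minus strand): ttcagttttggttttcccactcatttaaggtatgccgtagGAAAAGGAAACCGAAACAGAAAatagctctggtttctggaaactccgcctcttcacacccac
Oas1a (chr5:120907526-120907585, minus strand): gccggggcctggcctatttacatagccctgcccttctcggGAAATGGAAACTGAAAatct
Oas3 (chr5:120777685-120777774, minus strand): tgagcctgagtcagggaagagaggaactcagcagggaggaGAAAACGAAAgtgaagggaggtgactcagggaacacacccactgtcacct
Ifit3 (chr19:34583333-34583456, plus strand): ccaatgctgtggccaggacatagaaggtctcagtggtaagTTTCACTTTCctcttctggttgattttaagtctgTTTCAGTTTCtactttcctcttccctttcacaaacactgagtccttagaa

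These 5 genes were apart between the groups. Bst2, tetherin, a membrane protein that holds back budding virus, had 44.5, 45.3 and 33.6 CPM in MI and 21.3, 28.4 and 26.6 CPM in MI+BPD (-0.69 ± 0.16). Isg15, a ubiquitin-like modifier, had 12.4, 13.96 and 11.2 CPM and 4.43, 8.57 and 6.40 CPM (-0.95 ± 0.21). Oas1a and Oas3, sensors of double-stranded RNA, had 13.5, 8.83 and 8.33 CPM against 5.81, 6.26 and 7.06 CPM and 6.25, 4.84 and 3.08 CPM against 1.50, 2.93 and 1.37 CPM, and Ifit3, which takes part in recognising foreign RNA, had 53.7, 57.9 and 45.6 CPM against 14.4, 39.7 and 28.6 CPM. In MI+BPD 1 Ifit3 was at the sham level (13.7, 14.9 and 14.9 CPM).

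Markers of the white cells that can carry this response are given beside it. Macrophage and monocyte genes were 10 higher and 22 lower of 32 (median -0.13), with 0 apart, beside 13.9% of all genes. Their level was 5.50, 4.96 and 4.43 in MI against 4.96, 4.66 and 4.86 in MI+BPD. Without MI replicate 1 their median was 0.05, and that of the interferon list was -0.44. Spp1 (osteopontin) and Mrc1, the macrophage mannose receptor, had higher means in MI+BPD, with Mrc1 at 125, 80.3 and 68.1 CPM in MI and 172, 98.2 and 143 CPM in MI+BPD and Spp1 at 26.6, 34.1 and 24.3 CPM and 53.5, 32.3 and 47.8 CPM. Other markers of resident macrophages did not share one direction, with log2 changes of 0.81 ± 0.43 for Lyve1, 0.03 ± 0.60 for Cd163, -0.15 ± 0.63 for Folr2 and -1.70 ± 0.73 for Timd4. Timd4 was highest in MI 1, at 5.50, 1.18 and 0.690 CPM in MI and 1.02, 0.719 and 0.559 CPM in MI+BPD. Dendritic and mast cell genes were 1 higher and 12 lower of 13 tested (median -0.55), with 3 apart as lower, beside 7.32% of all genes. They were 3 higher and 10 lower without MI replicate 1, with a median of -0.25. The mast cell proteases Cpa3, Cma1, Tpsb2 and Mcpt4 were each highest in MI 1 of the 6 infarct libraries, with Cpa3 at 4.99, 0.448 and 0.138 CPM in MI and 1.44, 0.308 and 0.508 CPM in MI+BPD. Without MI replicate 1 the sign turned for Cpa3, Tpsb2 and Mcpt4 (log2 changes of 1.28, 0.38 and 0.85). Itgax, the integrin CD11c of dendritic cells and some macrophages, was apart at 9.70, 10.4 and 6.58 CPM in MI and 4.37, 6.47 and 6.15 CPM in MI+BPD, and Kit, a receptor of mast cells and progenitors, at 15.3, 12.5 and 13.3 CPM and 9.28, 10.8 and 7.92 CPM. The part of these cells in the interferon values was not tested.

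B-cell and neutrophil differences rested on MI 1. All 16 tested B and plasma cell genes were lower in MI+BPD (median -2.77), but the level was 5.58, 2.32 and 0.98 in MI against 2.28, 1.35 and 1.66 in MI+BPD, and without MI replicate 1 the median was -0.03. Ighm, the heavy chain of immunoglobulin M, had 1356, 33.4 and 18.9 CPM in MI and 31.3, 19.3 and 24.99 CPM in MI+BPD. Cd79a, a part of the B-cell receptor, was apart at 14.1, 1.06 and 0.644 CPM and 0.419, 0.513 and 0.609 CPM with MI 3 just above the treated libraries. Cxcl13, the chemokine that attracts B cells, had 90.7, 1.87 and 0.0920 CPM in MI and 2.52, 0.359 and 0.406 CPM in MI+BPD. Neutrophil genes were 2 higher and 7 lower of 9 tested (median -1.21, and 0.23 without MI replicate 1). T and NK cell genes were 5 higher and 12 lower of 17 tested (median -0.30), with 1 apart as lower, beside 7.32% of all genes. Of 29 tested cytokines and chemokines 11 were higher and 18 lower. Apart were 3 as higher and 1 as lower, beside 6.63% and 7.32% of all genes. Ccl12, a monocyte chemoattractant, was higher and apart at 2.53, 2.48 and 2.72 CPM in MI and 5.69, 4.16 and 5.94 CPM in MI+BPD.

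Most cell cycle genes had lower estimates in MI+BPD, and none was called in edgeR. Of 38 tested genes 35 were lower and 3 higher, and the median log2 change was -0.30. In the lower direction 15 were apart and 6 had an unadjusted p under 0.05, beside 7.32% and 4.88% of all genes. In the higher direction 0 were apart and 1 had such a p, Cenpf, a kinetochore protein, at 9.82, 11.2 and 9.30 CPM in MI and 24.6, 12.5 and 10.97 CPM in MI+BPD (0.66 ± 0.27). The level was 2.65, 2.88 and 2.51 in MI, 2.36, 2.43 and 2.28 in MI+BPD and 0.74, 0.83 and 1.01 in sham. Ube2c, the ubiquitin-conjugating enzyme of the anaphase-promoting complex, had 4.59, 6.76 and 4.14 CPM in MI and 2.34, 2.21 and 2.34 CPM in MI+BPD (-1.17 ± 0.22, edgeR adjusted p = 0.369, DESeq2 adjusted p = 0.0363). Ccnb1, cyclin B1, had 4.79, 5.70 and 4.14 CPM and 2.58, 2.16 and 1.93 CPM (-1.14 ± 0.26, DESeq2 adjusted p = 0.0266), and Aurka, the mitotic kinase Aurora A, had 2.22, 3.09 and 2.39 CPM and 1.38, 1.59 and 1.37 CPM. Both infarct groups stood above sham, where Ube2c had 0.366, 0.612 and 0.534 CPM. With 2 MI libraries left after MI replicate 2 was left out, 34 of the 38 were lower, 3 of them at an unadjusted p under 0.05, and the median was -0.20.

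Genes of heart muscle and its energy supply had higher means in MI+BPD, and for nearly all of them MI 3 overlapped with MI+BPD. All 49 tested nuclear genes of the respiratory chain were higher (median 0.59, range 0.42 to 0.90). At an unadjusted p under 0.05 there were 39, but only 1 was apart. Of all genes, 8.62% were higher at that p and 6.63% were higher and apart. Fatty acid oxidation genes were 34 higher of 35 (median 0.74, 1 apart), the 13 mitochondrial DNA-encoded genes all higher (median 0.81, 2 apart), and cardiomyocyte genes 39 higher of 40 (median 0.37, 2 apart in that direction). Single libraries moved these values. Without MI replicate 3 the respiratory chain median was 0.90 and 47 of the 49 genes were called. Of all genes 1353 were called in that setting, 1126 of them higher. Without MI+BPD replicate 1 the respiratory chain median was 0.34 and 0 had an unadjusted p under 0.05. Without MI replicate 1 or 2 the number at that p was 0 as well. The part of the amount of muscle in the tissue pieces in these values was not tested.

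Uqcrb, a subunit of complex III, shows the pattern, with 124, 136 and 219 CPM in MI and 304, 216 and 221 CPM in MI+BPD against 583, 589 and 580.3 CPM in sham. MI 3 lay inside the treated range, MI 1 and MI 2 below it. Ppara, the receptor that governs fatty acid oxidation, had 8.71, 8.35 and 15.8 CPM and 28.4, 15.4 and 17.98 CPM (0.91 ± 0.27), and Myh6, which encodes the adult cardiac myosin, had 4365, 4214 and 7197 CPM and 12783, 7012 and 7079 CPM (0.77 ± 0.33). Some muscle genes were nevertheless apart: Myot, a protein of the sarcomere's Z-disc, had 8.08, 10.02 and 14.3 CPM in MI and 28.2, 17.1 and 21.1 CPM in MI+BPD (1.04 ± 0.23, DESeq2 adjusted p = 0.018), and Rpl3l, a ribosomal protein made in striated muscle, had 12.7, 11.5 and 31.3 CPM and 92.5, 34.95 and 52.2 CPM against 209, 211 and 229.9 CPM in sham (1.70 ± 0.43, DESeq2 adjusted p = 0.018). Both had an edgeR adjusted p of 0.369. mt-Co3, a subunit of complex IV, had 23.4, 29.4 and 56.5 CPM in MI and 1358, 51.9 and 50.5 CPM in MI+BPD, so MI+BPD 1 set the size of the difference, and the other treated libraries lay within the range of MI. In sham mt-Co3 varied as well, at 116, 201 and 653 CPM. Of the same complex, mt-Co1 averaged 44973 CPM in MI but mt-Co2 and mt-Co3 only 35.8 and 36.4 CPM. How completely the authors' counting caught reads of these genes was not tested.

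Fetal and stress genes of cardiomyocytes did not follow the other muscle genes. Of 19 tested genes 4 were higher and 15 lower (median -0.25), with 0 apart and 0 at an unadjusted p under 0.05. Of all genes, 13.9% were apart and 13.5% had such a p, in either direction. Nppa, atrial natriuretic peptide, had 5458, 6721 and 7091 CPM in MI and 1282, 7228 and 4830.2 CPM in MI+BPD, and Nppb 303, 391 and 493 CPM and 206, 457 and 351 CPM, with MI+BPD 1 the lowest library of the 6 in both. Myh7, the fetal myosin heavy chain, had 1589.8, 1331 and 2782 CPM and 737, 2669.7 and 1601 CPM (-0.19 ± 0.49), and without MI+BPD replicate 1 or MI replicate 3 its sign turned. Glycolysis genes were 16 higher of 21 (median 0.23) and cytosolic ribosomal protein genes 24 higher and 23 lower of 47, with a median of 0.00054 (-0.21 with library totals only) and all 47 intervals within 2-fold.

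Genes of iron handling were split evenly. Of 38 tested genes of 44 listed, 19 were higher and 19 lower (median 0.00094, and -0.24 with library totals only, which move the median of all genes to -0.20), 6 were apart as higher and 1 as lower, beside 6.63% and 7.32% of all genes, and none was called. Fth1, the ferritin heavy chain, which oxidises iron for storage, had 582, 618 and 641 CPM in MI and 922, 686 and 691 CPM in MI+BPD, against 1211, 1330.0 and 1336 CPM in sham. All 3 treated libraries were above all MI libraries, though MI+BPD 2 and 3 by little, and the log2 change was 0.32 ± 0.15 with an interval of -0.02 to 0.66 (edgeR adjusted p = 0.38). Ftl1, the light chain, had 378, 386 and 258 CPM and 265, 314 and 336 CPM and overlapped (-0.16 ± 0.16, interval -0.53 to 0.21). Near-identical ferritin pseudogenes exist, so reads of both chains may be split in the authors' counting.

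Tfrc, the transferrin receptor, had 96.9, 95.1 and 209.9 CPM in MI and 199, 170.2 and 123 CPM in MI+BPD (0.29 ± 0.35). Slc40a1, ferroportin, had 17.3, 24.8 and 15.2 CPM and 23.7, 17.9 and 24.9 CPM (0.21 ± 0.19), and Ncoa4, the receptor that takes ferritin to the lysosome, had 51.7, 40.2 and 40.8 CPM and 56.96, 42.3 and 46.1 CPM (0.13 ± 0.13), and these 2 were slightly lower with library totals only. Their intervals, -0.22 to 0.65 and -0.16 to 0.42, stayed within 2-fold, while that of Tfrc, -0.48 to 1.07, reached past 2-fold on the higher side. Hmox1, heme oxygenase 1, had 24.4, 15.9 and 9.25 CPM and 20.8, 12.8 and 15.8 CPM (-0.01 ± 0.33), and Hmox2, its constitutive relative, was apart at 36.7, 33.5 and 40.04 CPM in MI and 47.9, 44.7 and 42.1 CPM in MI+BPD. Hfe, the hemochromatosis protein, and the importer Slc11a2 were apart as well, with Slc11a2 at 24.2, 23.6 and 27.4 CPM and 31.2, 29.4 and 27.6 CPM and Hfe at 26.8, 25.5 and 27.4 CPM and 38.3, 28.5 and 32.6 CPM. For Fth1, Hmox2 and Slc11a2 all sham libraries were above all infarct libraries, as for muscle genes, and the part of muscle content in these values was not tested.

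Antioxidant and ferroptosis genes were 24 higher and 9 lower of 33 tested (median 0.15, and -0.06 with library totals only), and 6 were apart, all higher, beside 6.63% of all genes. Nqo1, a quinone reductase under control of the transcription factor NRF2, had 18.4, 20.4 and 23.2 CPM in MI and 27.3, 28.7 and 28.5 CPM in MI+BPD, against 45.4, 43.8 and 44.8 CPM in sham. Its log2 change was 0.45 ± 0.09 with an interval of 0.25 to 0.65 (edgeR adjusted p = 0.369, DESeq2 adjusted p = 0.0161). Gpx4, the enzyme that removes lipid peroxides and holds back ferroptosis, had 161, 181 and 229 CPM and 236, 226 and 218 CPM (0.25 ± 0.13), and Cat, catalase, was apart at 116, 119.6 and 142 CPM and 171, 149.9 and 149 CPM. Slc7a11, the cystine importer, was low in both groups, at 0.515, 1.10 and 0.552 CPM and 2.04, 0.975 and 0.813 CPM. Targets of hypoxia-inducible factors, whose breakdown needs iron-dependent enzymes, were 19 higher and 12 lower of 31 tested, with a median of 0.03 (-0.17 with library totals only, -0.02 with upper-quartile factors) and 30 intervals within 2-fold. Vegfa had 114, 124 and 179 CPM in MI and 194, 138 and 136 CPM in MI+BPD, and the glucose transporter Slc2a1 16.7, 19.6 and 14.9 CPM and 13.2, 16.3 and 15.5 CPM. Iron-sulfur cluster and heme synthesis genes were 24 higher and 4 lower of 28 tested (median 0.29, and 0.08 with library totals only), with 0 apart. Their level was 4.24, 4.37 and 4.65 in MI, 4.80, 4.57 and 4.58 in MI+BPD and 5.34, 5.34 and 5.39 in sham. As for the cardiomyocyte genes, sham was highest, MI 3 lay in the range of MI+BPD and MI+BPD 1 was the highest infarct library. The part of muscle content in these values was not tested.

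Among vessel genes the lymphatic markers had higher means in MI+BPD. Of 6 tested lymphatic endothelial genes 5 were higher, with a median of 0.74. In that direction 3 were apart and 4 had an unadjusted p under 0.05, beside 6.63% and 8.62% of all genes. Mmrn1, multimerin 1, a marker of lymphatic endothelium also made by platelets, had 8.55, 11.1 and 24.8 CPM in MI and 44.9, 36.9 and 47.4 CPM in MI+BPD, against 10.3, 12.9 and 10.3 CPM in sham. The log2 change was 1.55 ± 0.33 with an interval of 0.80 to 2.29 (edgeR adjusted p = 0.369, DESeq2 adjusted p = 0.0096), and MI 3 was the highest of its group. Reln, reelin, secreted by lymphatic endothelium, had 7.64, 10.5 and 15.004 CPM and 21.6, 17.9 and 23.4 CPM, and Flt4, the receptor of VEGF-C, 25.9, 31.1 and 37.004 CPM and 45.6, 39.1 and 42.4 CPM. Prox1, the transcription factor that defines lymphatic endothelium but is also made in heart muscle, overlapped at 33.3, 39.9 and 67.8 CPM and 92.1, 66.6 and 64.8 CPM. Pdpn, podoplanin, which activated fibroblasts make too, had 41.2, 35.7 and 25.3 CPM and 31.5, 25.9 and 32.7 CPM. Lyve1 overlapped as well (0.81 ± 0.43). Without MI replicate 3 edgeR called 4 of the 6, beside 1353 of all genes, 1126 of them higher.

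Markers of blood vessels were close to the middle of all genes. Endothelial genes were 18 higher and 8 lower of 26 (median 0.09, and -0.13 with library totals only), and 23 intervals were within 2-fold; Flt1, a VEGF receptor, was at 87.4, 91.8 and 116 CPM in MI and 156, 132 and 112 CPM in MI+BPD. In each direction 1 endothelial gene was apart, beside 6.63% of all genes as higher and 7.32% as lower. Apln, the peptide of growing vessels, was apart in the lower direction at 17.9, 24.5 and 22.2 CPM and 16.7, 16.8 and 14.7 CPM. Pericyte and smooth muscle genes were 10 higher and 8 lower of 18 (median 0.04, and -0.16 with library totals only). Epicardial and mesothelial genes were 2 higher and 12 lower of 14, with a median of -0.57 that was 0.69 without MI replicate 1.

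The remaining named genes of smallest p are on none of the lists. On the higher side, Ptgds, the lipocalin-type prostaglandin D synthase, had 38.1, 53.6 and 69.04 CPM in MI and 139.7, 93.6 and 105 CPM in MI+BPD, against 247, 222 and 211 CPM in sham (1.08 ± 0.21, edgeR adjusted p = 0.369, DESeq2 adjusted p = 0.0027). Dpep1, a membrane dipeptidase, had 33.3, 31.8 and 27.2 CPM and 53.6, 42.6 and 50.3 CPM (0.67 ± 0.11, DESeq2 adjusted p = 0.0012). Tmem267, a transmembrane protein, had the smallest p of all, at 3.96, 4.93 and 4.88 CPM in MI and 10.2, 11.3 and 8.18 CPM in MI+BPD, with the treated libraries near the sham values of 9.61, 9.88 and 8.62 CPM (1.11 ± 0.15, DESeq2 adjusted p = 1.4e-05). Mtr (methionine synthase), Kcna2 (a potassium channel subunit) and Fbxo31 (an F-box protein) had log2 changes of 0.58 ± 0.13, 1.28 ± 0.30 and 0.61 ± 0.15.

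On the lower side, Ptprd, a receptor tyrosine phosphatase, had 53.1, 61.1 and 42.2 CPM in MI and 26.5, 34.6 and 30.8 CPM in MI+BPD (-0.77 ± 0.14, DESeq2 adjusted p = 0.0111), and Mest, an imprinted gene of growing tissue, had 20.98, 25.6 and 23.2 CPM and 12.3, 17.3 and 13.9 CPM (-0.68 ± 0.13, DESeq2 adjusted p = 0.018). Ifi203, an interferon-inducible gene, had 133, 113 and 111 CPM and 78.7, 91.8 and 84.3 CPM (-0.49 ± 0.10). Slc7a5, a transporter of large neutral amino acids, Sfi1, a centrosomal protein, and Cryzl2 had log2 changes of -0.67 ± 0.15, -0.77 ± 0.14 and -0.46 ± 0.10. For the genes named by smallest p the groups were apart by the rule that chose them, so that separation is no finding.

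**Figure D4:**
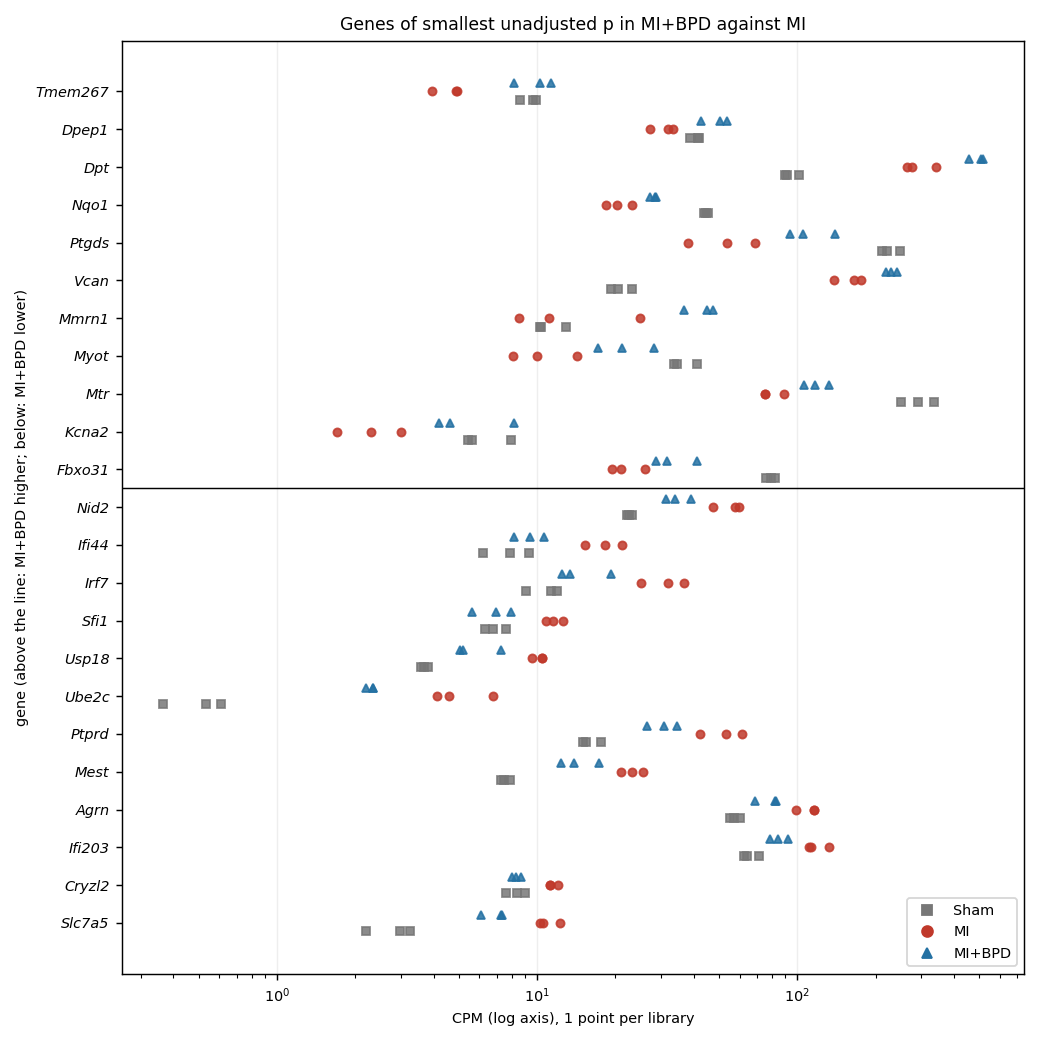
CPM (horizontal log axis) of 23 named genes of smallest unadjusted p in MI+BPD against MI, 1 point per library, with 11 higher genes above the line and the 12 lower genes below it. Red circles are MI, blue triangles MI+BPD and grey squares sham; for Dpep1, Dpt, Vcan and Mmrn1 all treated libraries lie above sham, for Tmem267 and Kcna2 they overlap sham, and for all 12 lower genes they lie below MI and either above sham or overlapping it.

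The largest fold changes among genes that were apart included values set by 1 library. Car3, a carbonic anhydrase of fat and muscle, had 175, 2.48 and 2.16 CPM in MI and 1.08, 0.462 and 0.965 CPM in MI+BPD, so MI 1 set the size of its log2 change of -6.17 ± 1.85. Cxcl5, a neutrophil chemokine, had 1.94, 1.91 and 0.874 CPM and 20.7, 2.05 and 3.76 CPM, with MI+BPD 1 far above the others. More even were Rgs1, a regulator of G-protein signalling in white cells, at 9.86, 10.7 and 4.65 CPM in MI and 2.52, 2.16 and 3.76 CPM in MI+BPD, and Adamts17, a metalloprotease, at 4.67, 7.53 and 5.06 CPM and 1.50, 3.23 and 2.69 CPM. Kank4 had 10.5, 11.3 and 8.88 CPM and 1.56, 6.01 and 5.03 CPM. Of the muscle-expressed genes Ces1d, Lrtm1 and Adra1a the log2 changes were 1.67 ± 0.45, 1.46 ± 0.42 and 1.28 ± 0.33, with sham higher than both infarct groups in each.

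**Figure D5:**
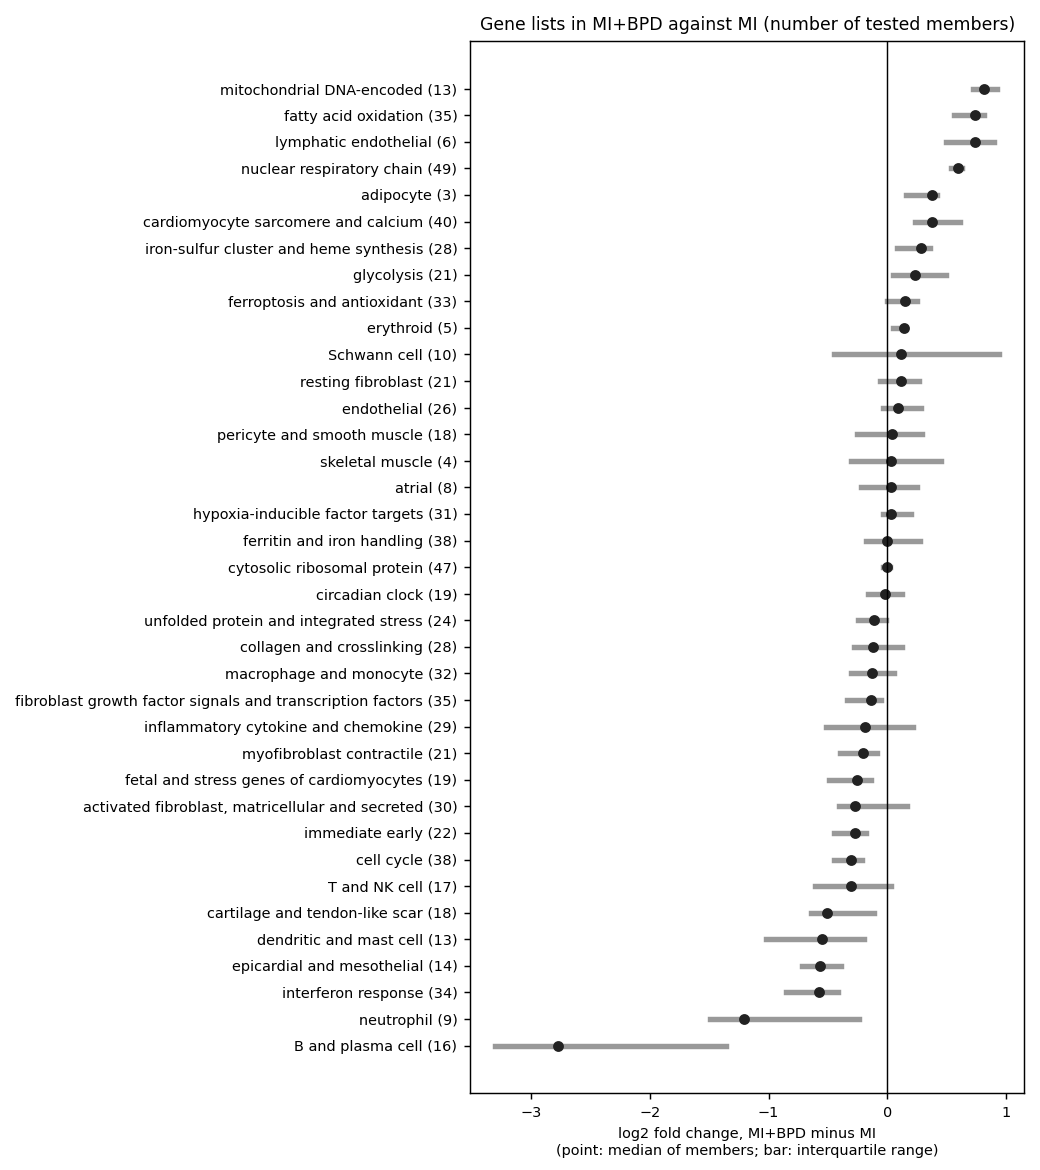
Median log2 fold change in MI+BPD against MI (point) and interquartile range of the members (bar) for the 37 gene lists with at least 3 tested members, with the number of tested members in brackets. Muscle energy lists and lymphatic genes lie on the higher side, interferon and B-cell lists on the lower side, and the ribosomal, iron handling and hypoxia lists near 0.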

How the data were processed

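RNA of mouse left ventricle was sequenced in 9 libraries (3 sham, 3 MI, 3 MI+BPD; 150 bp paired-end, RNA integrity number above 7), per the labels' protocols. The authors deposited raw counts per gene symbol, without normalization. STAR and 3 genome builds (mm10, GRCm39, mm39) are named in the submitters' processing notes without version or role (counting program, annotation, strand setting: not given in the sources used here), so reads of overlapping or antisense genes cannot be told apart and the only coordinates printed are those of RefSeq's promoter table. No molecular identifiers are mentioned, so reads may not be independent molecules.

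The counts were analysed with edgeR 4.0.16 in R 4.3.3. The steps were TMM factors, filterByExpr (minimum count 10, minimum total 15; the genes kept hold 99.9% of counts) and a robust quasi-likelihood fit of 9 libraries by group, with 2-sided tests and Benjamini-Hochberg adjustment over 15138 genes. Intervals of 95% use the standard error that follows from F. The biological coefficient of variation was 0.167. List levels are means of log2 CPM (prior count 2). Members and the 38 lists were chosen with earlier results of these data known. Genes were named by a rule: the 12 of smallest p and the 6 of largest fold in each direction that averaged 5 CPM or more where higher, did not overlap and had no predicted symbol, up to 4 of smallest p per list, and a panel of 24; a few of these are not reported here. Outside it, and chosen after their values were seen, are Bst2, Isg15, Oas1a, Oas3, Ifit3, Ifit3b, Cxcl9, Igtp, Pdpn, Tcf21, Egr1, Thbs4, Cenpf, Lyve1, Cd163, Folr2, Timd4, Cpa3, Cma1, Tpsb2, Mcpt4, Clk1, Ccnl2 and Cyp1a1. Alternatives were DESeq2 1.42.0, limma 3.58.1 (voom with quality weights), other scaling factors, filters, a replicate block, a threshold of 0.10, MI and MI+BPD alone, the removal of mitochondrial and haemoglobin genes, and of each library in turn. The scripts were tested on simulated data.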

Additional observations from a re-analysis of the deposited data

How the results depend on the processing

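No gene was called with edgeR under median-ratio factors, upper-quartile factors, library totals only, no filter, a stricter filter (1 CPM in 6 libraries), MI and MI+BPD alone, mitochondrial and haemoglobin genes left out, or a threshold of 0.10; the smallest adjusted p among these was 0.0860 (no filter). DESeq2 called 37 (16 higher, 21 lower) and limma-voom 992 (771 higher, 221 lower). Leaving out each library gave 0 to 1353 calls (0 to 1126 higher, 0 to 227 lower), above 0 only without MI replicate 3; the cause was not tested. Library totals as the only scaling moved the median of all genes to -0.20 and the split at an unadjusted p under 0.05 from 1305 higher and 738 lower to 437 and 2838; upper-quartile factors gave 942 and 1071, MI and MI+BPD alone 540 and 662. Same-numbered MI and MI+BPD libraries deviated from their group means with correlations of 0.14, 0.19 and -0.16. Differently numbered ones had -0.28 to 0.21. With so few libraries these values can neither show nor exclude that the numbers pair the samples. With the replicate block edgeR called 0 genes, with 976 higher and 611 lower at an unadjusted p under 0.05.

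Of the named genes, 20 changed sign somewhere (log2 changes): Col1a1 (limma-voom -0.32, upper-quartile -0.026, library totals -0.22, leaving out libraries -0.20 to 0.23), Myh7 (limma-voom 0.32, leaving out -0.70 to 0.20), Slc40a1 (limma-voom -0.044, library totals -0.0064), Ncoa4 (library totals -0.094, leaving out -0.023 to 0.26), Vegfa (library totals -0.041, leaving out -0.040 to 0.39), Col3a1 and Fap (library totals -0.049 and -0.024), Cxcl9 (limma-voom 0.13, leaving out -0.24 to 0.15), Igtp (limma-voom 0.089), Klf4 (library totals -0.0050), Hmox1 (replicate block 0.018, leaving out -0.29 to 0.38), Cd163 (upper-quartile -0.032, library totals -0.25, leaving out -0.79 to 0.91), Folr2 (limma-voom 0.20, leaving out -0.85 to 0.93), and on leaving out libraries Acta2 (-0.49 to 0.0085), Nppb (-0.51 to 0.013), Cxcl13 (-6.35 to 0.087), Thbs4 (-0.24 to 0.66), Cpa3 (-2.22 to 1.28), Tpsb2 (-2.45 to 0.38) and Mcpt4 (-1.14 to 0.85).

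With 3 libraries in each group, 78.8% of genes had an interval inside 2-fold; for the others the depth and number of libraries did not limit the change to under 2-fold.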

Other observations

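Immediate early genes, which respond within minutes to stretch, growth factors and tissue handling, were 3 higher and 19 lower of 22 tested (median -0.27). Apart were 1 as higher and 4 as lower, beside 6.63% and 7.32% of all genes. Nr4a1, a nuclear receptor of this class, had 56.8, 51.4 and 31.4 CPM in MI and 23.4, 17.5 and 24.02 CPM in MI+BPD, against 24.2, 42.9 and 10.8 CPM in sham (-1.11 ± 0.41). Klf2 and Klf4, Krüppel-like factors that respond to blood flow in endothelium, lay in opposite directions, Klf2 at 44.9, 49.1 and 41.7 CPM and 37.7, 39.5 and 38.3 CPM and Klf4 at 49.5, 51.9 and 46.1 CPM and 54.6, 55.2 and 60.1 CPM, and both were apart (Klf4 0.20 ± 0.08, and -0.0050 with library totals only). Of 24 genes of the unfolded protein and integrated stress responses 5 were higher and 19 lower (median -0.11), with 1 apart in each direction. Asns, asparagine synthetase, was lower and apart at 9.78, 8.14 and 6.40 CPM and 5.39, 5.70 and 5.33 CPM. Circadian clock genes were 8 higher and 11 lower of 19 (median -0.02), with 1 apart.

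Schwann cell genes were 5 higher and 5 lower of 10 tested (median 0.12, and -0.10 with library totals only). Those apart were 3 as higher and 1 as lower, beside 6.63% and 7.32% of all genes. Gfra3, a receptor for the growth factor artemin, had 0.238, 0.366 and 0.552 CPM in MI and 2.04, 0.770 and 0.762 CPM in MI+BPD, against 1.28, 1.49 and 1.75 CPM in sham. Prx, periaxin of myelinating Schwann cells, lay the other way at 3.88, 3.58 and 3.31 CPM and 1.98, 3.08 and 2.69 CPM. Adipocyte (3 tested), erythroid (5), atrial (8) and skeletal muscle genes (4) had medians of 0.38, 0.14, 0.03 and 0.03 (0.19, -0.08, -0.21 and -0.12 with library totals only), and of the lung epithelium list 1 gene was tested. Among the genes that DESeq2 called were Clk1 and Ccnl2, a kinase and a cyclin that act on splicing factors, both lower: Clk1 had 162, 143 and 148 CPM in MI and 116, 122 and 126 CPM in MI+BPD, and Ccnl2 117, 113 and 111 CPM and 88.8, 89.8 and 94.6 CPM. It also called Cyp1a1, a target of the aryl hydrocarbon receptor, at 0, 0 and 0.0460 CPM in MI, 1.20, 0.0513 and 2.03 CPM in MI+BPD and 2.10, 3.41 and 3.13 CPM in sham, where MI 3 and MI+BPD 2 held 1 read each.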
